A study of Homo sapiens with 12 samples.

Results

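The response of HK-2 cells to Nnm, a compound that the labels name only so and give at a low dose, was compared between 48 h and 24 h of exposure, as the effect of Nnm at 48 h minus its effect at 24 h. HK-2 cells derive from epithelium of the human proximal tubule and were immortalised with human papillomavirus genes, so all values come from 1 cell line. The members are all 12 of the 12 arrays of the series, chosen by their titles, in 4 groups of 3 biological replicates. These are vehicle control for 24 h, Nnm for 24 h, vehicle control for 48 h and Nnm for 48 h. All groups shared a medium with 5 mM glucose, epidermal growth factor, hydrocortisone and insulin, were seeded 24 h before exposure and were near 90% confluent when it began. Nnm is 1 of 9 compounds in a survey of expression changes linked to kidney toxicity. For each gene and replicate number, Nnm minus control at 24 h was subtracted from Nnm minus control at 48 h. The result, called the difference here, is also the change of Nnm-treated cells from 24 h to 48 h minus the change of control cells over the same time. A positive difference can therefore come from a gene that was higher in treated cells at 48 h than at 24 h or from one that was lower in control cells at 48 h than at 24 h, and both changes were read from the same arrays.

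Several programmes described here are well known as background. Genes of DNA replication are switched on by E2F factors when a cell enters S phase, and genes of mitosis follow in G2 through the DREAM and MuvB complexes, FOXM1 and the NF-Y factor. TXNIP encodes an arrestin that lowers glucose uptake and binds thioredoxin, and its promoter responds to glucose through the MondoA and ChREBP factors with their partner MLX. ATF4 raises amino acid transporters and synthetic enzymes when translation is restrained, and NRF2 raises enzymes of glutathione and thioredoxin when oxidants or electrophiles reach the cell. In the kidney, proximal tubule cells reabsorb glucose and amino acids, make glucose and are a main target of toxic compounds.

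Expression values are on a log2 scale, on which 1 unit is a doubling, and each gene stands for 1 probe set. The 12 arrays had 40.4% to 40.8% of their probe sets above a log2 of 4, and 10907 genes passed the filter on dim probe sets. The spread of the difference over genes was lower for replicate 2 (SD 0.311) than for replicate 1 (0.517) and replicate 3 (0.502). The effect of Nnm was also smaller in replicate 2, with SDs over genes of 0.373 at 24 h and 0.364 at 48 h, against 0.609 to 0.705 for replicates 1 and 3. On the 4 arrays of replicate 2, the 5′ probe set of ACTB lay 1.09 to 1.17 below its 3′ probe set, a sign of RNA quality, against 0.74 to 0.86 below it on the other 8 arrays. In the difference itself this measure was -0.16, 0.05 and 0.04 in replicates 1, 2 and 3. For GAPDH the 5′ probe set lay 0.06 to 0.16 above its 3′ probe set on the replicate 2 arrays and 0.03 to 0.16 above it elsewhere. GAPDH thus did not set replicate 2 apart, and its values in the difference were 0.03, -0.08 and 0.02. The part of RNA quality in the results was not tested. A list median printed in the text that moved by over 1.5 times when 1 replicate was left out is given with that value.

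No gene passed an adjusted p of 0.05 in the difference (0 of 10907 in the paired limma test, 0% of genes, smallest adjusted p = 0.22). An unadjusted p under 0.05 was reached by 1862 genes, 17.1% of those tested, of which 1063 were higher (9.75%) and 799 lower (7.33%). All 3 replicates lay above 0 in 2519 genes (23.1%) and below 0 in 2179 genes (20%), and the median over all genes was 0.014. With the replicate number as a block over all 12 arrays, 2 genes passed, NOCT with a higher and COL4A3 with a lower value, both of them near the floor of the arrays. Without any block 0 genes passed, with 698 at an unadjusted p under 0.05. All single-gene differences below are therefore descriptions with their replicate spread, and the tests that passed concern the changes that make up the difference.

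The part played by each kind of cell was read from the 2 changes with time. In control cells, 836 genes rose (7.66%) and 1027 fell (9.42%) from 24 h to 48 h. In Nnm-treated cells no gene passed (0%, smallest adjusted p = 0.0898, 2115 genes or 19.4% at an unadjusted p under 0.05). The typical standard error was 0.0834 for the control change and 0.115 for the Nnm change, and the part of this unequal precision in the counts was not tested. With the replicate block the counts were 924 for control and 250 for Nnm-treated cells, and without a block they were 14 and 13. The control count fell with any replicate left out, to 0 without replicate 1, 582 without replicate 2 and 0 without replicate 3. Leaving out replicate 2 gave 58 calls in Nnm-treated cells. Against control cells of the same time, 665 genes were higher and 469 lower with Nnm at 24 h (6.1% and 4.3%), and 897 were higher and 513 lower at 48 h (8.22% and 4.7%). These counts also moved with the replicate left out. At 24 h they were 0 without replicate 1 or replicate 3 and 4306 without replicate 2. At 48 h they were 1 without replicate 1, 0 without replicate 3 and 3673 without replicate 2. With the replicate block, 3.87% of genes were called higher and 4.6% lower in control cells with time. The shares higher and lower with Nnm were then 20% and 18.8% at 24 h and 18.5% and 13.7% at 48 h. Calls below are from the paired test on all 3 replicates unless another fit is named.

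By size rather than by call, the 2 kinds of cell were closer. The control change was the larger one in 54.6% of all genes, in 1174 of the 1862 genes at an unadjusted p under 0.05 (63.1%), and in 96 of the 152 genes whose difference was over 1 log2 unit in size (63.2%). Of these 152 genes, 102 were positive and 50 negative. The SD over genes was 0.337 for the control change and 0.297 for the Nnm change. Across the 10907 genes the changes correlated at a Pearson r of 0.428 and a Spearman rho of 0.369. These figures describe genes that share arrays and are no replicates of each other. The 1027 genes that fell in control cells had a median control change of -0.49 and a median Nnm change of -0.13, a comparison that the choice of genes on control values favours.

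**Figure D1:**
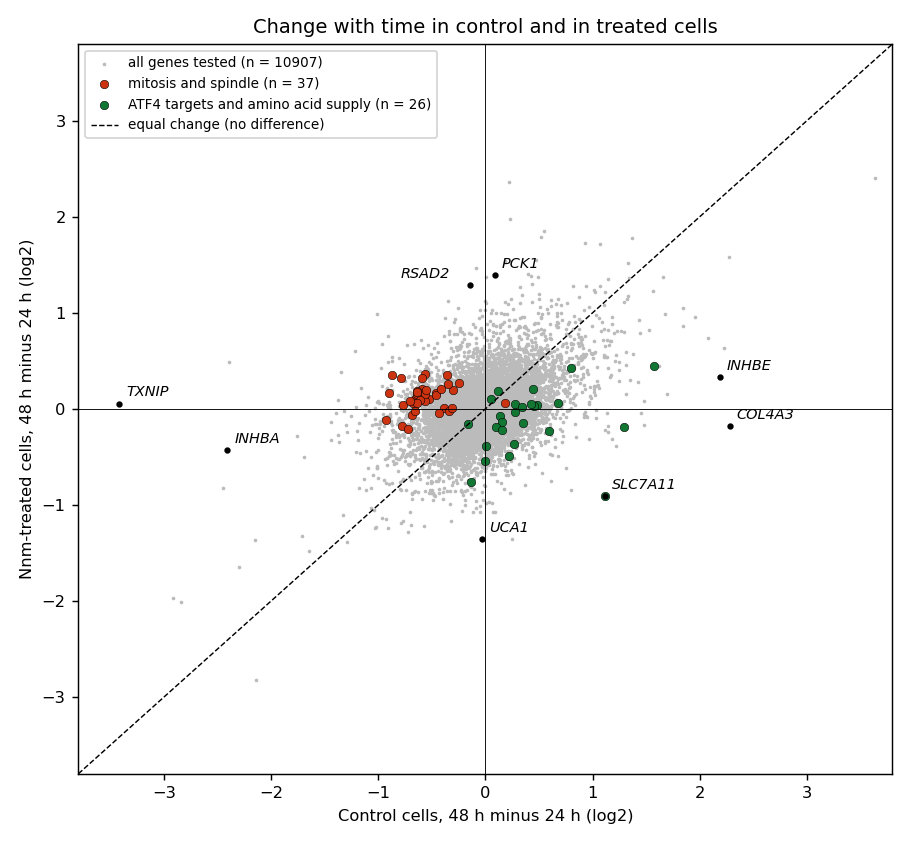
Change from 24 h to 48 h in control cells (horizontal axis, log2) against the change in Nnm-treated cells (vertical axis, log2) for the 10907 genes tested, each the mean of 3 replicate pairs. The vertical distance from the dashed line of equal change is the difference. Mitosis genes (red) lie to the left near a vertical value of 0, ATF4 targets (green) to the right, TXNIP far to the left at -3.42, and RSAD2, PCK1 and UCA1 near the vertical axis.

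Genes of mitosis made up the group with the largest median difference among the 44 lists with at least 5 tested genes. All 37 of the 37 listed genes were tested, and their median difference was 0.70, with replicate medians of 0.76, 0.23 and 1.05, against 0.014 over all genes. The list was also the highest with any 1 replicate left out, while within replicate 1 the replication list (0.80) and within replicate 2 the podocyte markers (0.27) had higher medians. Of the 37, 34 lay above 0 in all 3 replicates and 0 below it in all 3, against 23.1% and 20% of all genes. An unadjusted p under 0.05 was reached by 31 with a higher value and 0 with a lower one (9.75% and 7.33% of all genes). No member passed the adjusted threshold. The arrays measured whole cultures, so fewer cells in mitosis and less of each transcript per cell cannot be told apart.

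The larger change lay in the control cells, where 33 of the 37 mitosis genes fell from 24 h to 48 h and 0 rose (9.42% and 7.66% of all genes). Their median change was -0.59, with replicate medians of -0.62, -0.52 and -0.60. In Nnm-treated cells 0 of 37 passed in either direction, and the median change was 0.12, with replicate medians of 0.20, -0.29 and 0.43. The control change was thus alike in the 3 replicates, while the Nnm change differed between them in sign. The control change was larger in size in 36 of the 37 genes. The median effect of Nnm on the list was -0.28 at 24 h, where 0 genes passed, and 0.41 at 48 h, where 8 were higher than in control cells (8.22% of all genes were) and 0 lower. With the replicate block, 9 of the 37 were lower with Nnm at 24 h and 0 higher (18.8% and 20% of all genes). At 48 h 17 were then higher and 0 lower (18.5% and 13.7%). The 33 falls in control cells became 18 with the replicate block (4.6% of all genes) and 0 without a block. They became 0, 20 and 0 when replicates 1, 2 and 3 were left out, although the median difference then stayed between 0.51 and 0.93.

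CCNA2 encodes cyclin A2, which drives S phase and entry into mitosis. Its log2 values in control cells were 10.82, 10.94 and 11.25 at 24 h and 9.91, 10.08 and 10.33 at 48 h, and in Nnm-treated cells 10.75, 10.92 and 10.91 at 24 h and 10.80, 10.67 and 11.59 at 48 h. All 3 control arrays at 48 h lay below every other array, and the treated arrays of the 2 times overlapped. CCNA2 fell by 0.90 in control cells (SE 0.07, adjusted p = 0.0121), the Nnm change was 0.16 (SE 0.19), and the difference was 1.06 (SE 0.21, n = 3, unadjusted p = 0.00326, adjusted p = 0.224).

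AURKB encodes the Aurora kinase of the chromosomal passenger complex. It stood at 9.64, 9.51 and 10.06 in control cells at 24 h, at 8.93, 8.67 and 9.25 in control cells at 48 h, at 9.33, 9.45 and 9.45 with Nnm at 24 h and at 9.76, 9.26 and 10.18 with Nnm at 48 h. The control arrays of the 2 times did not overlap, while those of treated cells did. AURKB fell by 0.79 in control cells (adjusted p = 0.0131) and had a difference of 1.11 (SE 0.20). DLGAP5, a spindle microtubule protein, fell by 0.56 in control cells (adjusted p = 0.0173, and 0.0614 with the block) and had a difference of 0.92 (SE 0.18). The effect of Nnm on DLGAP5 was -0.65 at 24 h (adjusted p = 0.0825, and 0.014 with the block) and 0.27 at 48 h (adjusted p = 0.11).

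The same order of values ran through most of the list. KIF23, a kinesin of the central spindle, had the largest difference in the list at 1.22 (SE 0.27). CDC20, the activator of the anaphase-promoting complex, fell by 0.93 in control cells, and the cyclin CCNB1, the kinetochore kinase BUB1 and the proliferation marker MKI67 fell by 0.77, 0.65 and 0.64. CDC25B, a phosphatase that activates CDK1, was the exception at a difference of -0.12, with a control change of 0.19 that did not pass. The genes KIF23, CDC20, CCNB1, BUB1, MKI67 and CDC25B were chosen after their values were seen.

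**Figure D2:**
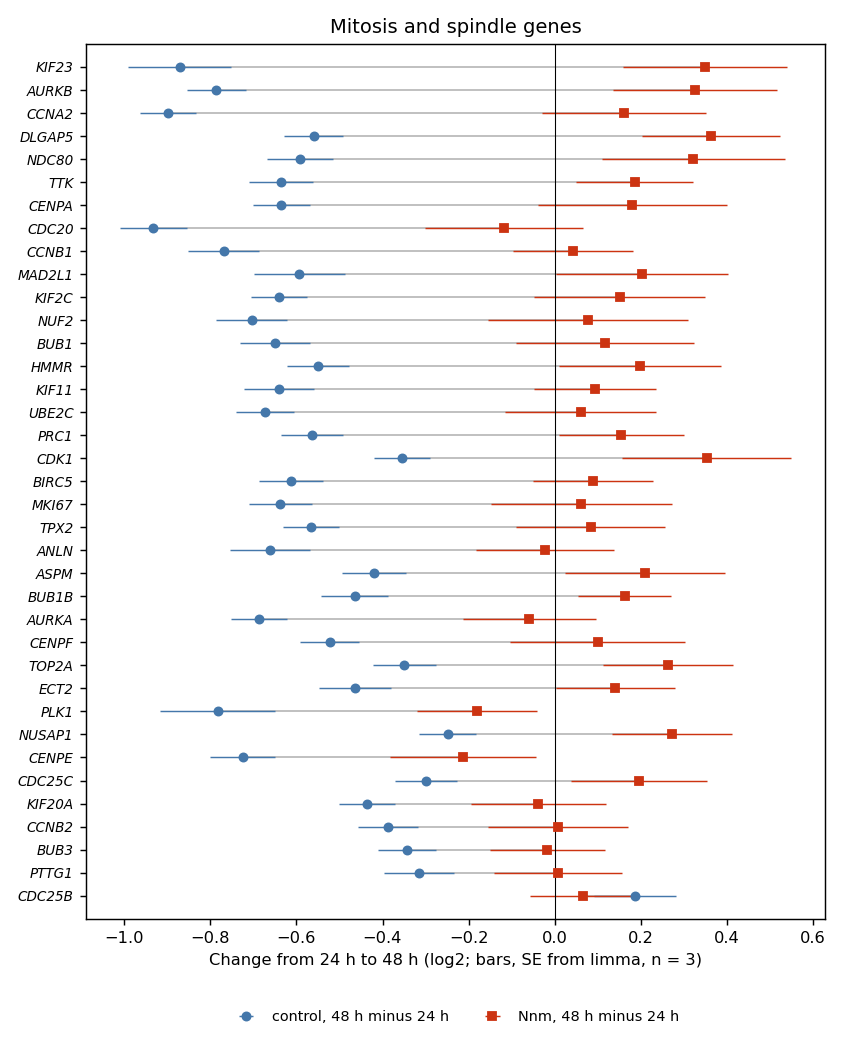
Change from 24 h to 48 h (log2) of the 37 mitosis and spindle genes in control cells (blue circles) and Nnm-treated cells (red squares), ordered by the difference between them, with limma standard errors from 3 replicate pairs. The control values of 36 genes lie below 0, most between -0.3 and -0.9, and the Nnm values lie around 0.

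The promoters of the 3 mitosis genes with the smallest p, which carry motifs known from cell cycle promoters, are shown from RefSeq (build GRCh38.p14) as the 250 bases before the listed start, read 5′ to 3′ on the strand of the gene, which is the minus strand for all 3. Capitals mark matches on either strand to the NF-Y box, CCAAT. In DLGAP5 they also mark matches on either strand to the CHR element, TTTGAA. The regions are chr17:8210226-8210475 for AURKB, where the first of 2 listed starts was taken, chr14:55191586-55191835 for DLGAP5 and chr4:121823884-121824133 for CCNA2.
AURKB: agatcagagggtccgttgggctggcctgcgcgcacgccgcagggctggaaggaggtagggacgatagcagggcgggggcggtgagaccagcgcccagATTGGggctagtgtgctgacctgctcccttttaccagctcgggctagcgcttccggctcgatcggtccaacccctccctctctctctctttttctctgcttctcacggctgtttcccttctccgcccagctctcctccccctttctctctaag
DLGAP5: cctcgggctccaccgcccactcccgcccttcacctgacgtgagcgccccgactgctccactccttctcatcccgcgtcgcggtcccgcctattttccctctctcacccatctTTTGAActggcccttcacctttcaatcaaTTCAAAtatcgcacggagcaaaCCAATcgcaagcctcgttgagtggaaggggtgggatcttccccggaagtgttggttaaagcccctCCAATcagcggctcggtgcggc
CCNA2: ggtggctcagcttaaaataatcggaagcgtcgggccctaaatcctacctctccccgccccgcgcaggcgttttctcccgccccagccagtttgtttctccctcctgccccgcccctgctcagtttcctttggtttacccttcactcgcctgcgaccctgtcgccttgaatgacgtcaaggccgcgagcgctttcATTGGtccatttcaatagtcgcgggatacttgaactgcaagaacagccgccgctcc

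The NF-Y box was found in 30 of the 41 promoters listed for the mitosis genes (73.2%), against 32.0% of the 35116 promoters in the table and 33.5% of the 13208 promoters of tested genes. The CHR element was found in 19 of the 41 (46.3%), against 13.3% and 9.07%. Both strands were searched in the 250 bases before each start, some genes have several listed starts, and a match is a stretch of letters and not a measured binding site. Promoters of the DNA replication genes held the NF-Y box in 25 of 43 (58.1%) and the CHR element in 2 of 43 (4.65%). The E2F site, searched as TTTCGCGC or TTTGGCGC, was found in 6 of these 43 promoters (14.0%) and in 2 of the 41 mitosis promoters (4.88%), against 1.51% of those of tested genes. The DNA repair genes held the NF-Y box in 16 of 28 promoters (57.1%), the CHR element in 2 (7.14%) and the E2F site in 0.

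Genes of DNA replication and nucleotide supply had a median difference of 0.44 over 32 tested of 33 listed, with replicate medians of 0.80, 0.10 and 0.39. Left-out replicates moved this median to between 0.23 (without replicate 1) and 0.63 (without replicate 2). All 3 replicates lay above 0 in 21 of the 32 and below 0 in 0, against 23.1% and 20% of all genes. An unadjusted p under 0.05 was reached by 14 with a higher value and 0 with a lower one (9.75% and 7.33% of all genes). In control cells 16 of the 32 fell and 0 rose (median -0.39), against 9.42% and 7.66% of all genes. In Nnm-treated cells the median change was 0.01 with 0 of 32 past the threshold. The 16 falls became 7 with the replicate block (4.6% of all genes), 0 without a block, and 0, 5 and 0 without replicates 1, 2 and 3. The median effect of Nnm on these genes was -0.22 at 24 h and 0.22 at 48 h. At 48 h 3 of the 32 were higher with Nnm and 0 lower, against 8.22% and 4.7% of all genes. With the block 9 were higher and 0 lower, against 18.5% and 13.7% of all genes.

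MCM10, which helps to load polymerase at replication origins, had the largest difference of the list. Its control values were 8.18, 8.33 and 8.63 at 24 h and 6.57, 6.83 and 7.59 at 48 h, and its values with Nnm were 7.41, 8.37 and 8.27 at 24 h and 8.12, 7.66 and 8.53 at 48 h. The control arrays of the 2 times did not overlap and those with Nnm did. MCM10 fell by 1.38 in control cells (adjusted p = 0.0135), and its difference was 1.47 (SE 0.30, 2.77-fold). These values and its rank in the list belong to its brightest probe set. Its other kept probe sets had smaller differences, 0.42 and 0.74, with control changes of -0.69 and -0.62 and Nnm changes of -0.28 and 0.12. The origin licensing factor CDC6 and the helicase factor CDC45, both chosen after their values were seen, each fell by 0.96 in control cells. Thymidine kinase TK1 had a difference of 0.93 (SE 0.21) and the clamp loader subunit RFC3 one of 0.58 (SE 0.14), and both fell in control cells, TK1 not with the block (adjusted p = 0.134). The helicase subunits MCM2, MCM3, MCM5 and MCM6, also chosen after their values were seen, had differences of 0.06 to 0.14 and passed in neither kind of cell.

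Of the DNA repair genes, 20 of 26 were tested, with a median difference of 0.33. In control cells 7 fell and 1 rose, against 9.42% and 7.66% of all genes. The 7 falls became 2 with the replicate block (4.6% of all genes) and 0 without replicate 1 or 3. Among the members with the smallest p were the helicase BLM (difference 1.38, SE 0.29; control change -1.16) and the translocase RAD54L (0.98, SE 0.20), both of homologous recombination. At 48 h both were higher with Nnm than in control cells, BLM by 0.85 and RAD54L by 0.77, and at 24 h neither passed. ATM, the kinase that signals double-strand breaks, rose by 0.48 in control cells (adjusted p with the block = 0.222) and had a difference of -0.20.

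Genes of RNA polymerase I and ribosome biogenesis, which supply new ribosomes to growing cells, had a median difference of 0.22 over 26 tested genes. All 3 replicates lay above 0 in 15 of them and below 0 in 0, against 23.1% and 20% of all genes. The effect of Nnm on this list was negative at both times, with medians of -0.51 at 24 h and -0.31 at 48 h. At 24 h 6 of the 26 were lower with Nnm and 1 higher, against 4.3% and 6.1% of all genes, and at 48 h 3 were lower and 1 higher, against 4.7% and 8.22%. With the block the lower genes numbered 18 at 24 h and 9 at 48 h, against 18.8% and 13.7% of all genes. POLR1A, the largest subunit of RNA polymerase I, was lower with Nnm at 24 h by 1.25 (adjusted p = 0.0438) and had an effect of -0.23 at 48 h (adjusted p = 0.379). Its control change was -0.53 (SE 0.16) and its Nnm change 0.49 (SE 0.09), and neither passed. On this probe set the 2 kinds of cell contributed about equally to its difference of 1.01 (SE 0.17). The other kept probe set of POLR1A had a difference of 0.27, with changes of -0.21 in control cells and 0.06 with Nnm.

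TXNIP had the largest difference among the genes named here. Its log2 values in control cells were 9.35, 9.85 and 9.15 at 24 h and 4.25, 6.70 and 7.14 at 48 h, and in Nnm-treated cells 12.27, 11.81 and 12.23 at 24 h and 12.55, 11.74 and 12.19 at 48 h. Treated cells were high and level at both times, and control cells were lower, most of all at 48 h, with no overlap between the 2 control groups. TXNIP fell by 3.42 in control cells (SE 0.59, adjusted p = 0.0284), and its Nnm change was 0.06 (SE 0.11). The difference was 3.48 (SE 0.62, 11.1-fold, replicates 5.37, 3.07 and 1.98, unadjusted p = 0.00194, adjusted p = 0.224). Set against control cells of the same time, Nnm-treated cells were higher by 2.66 at 24 h and by 6.13 at 48 h, both past the threshold.

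The TXNIP promoter on RefSeq's GRCh38.p14, chr1:145996580-145996829 on the minus strand (the first of 2 listed starts), is shown because it holds a match to the carbohydrate response element at which MondoA, ChREBP and MLX are known to bind. Capitals mark that match, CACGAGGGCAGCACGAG, which begins 88 bases before the start, and 2 NF-Y boxes. The element was searched on both strands.
TXNIP: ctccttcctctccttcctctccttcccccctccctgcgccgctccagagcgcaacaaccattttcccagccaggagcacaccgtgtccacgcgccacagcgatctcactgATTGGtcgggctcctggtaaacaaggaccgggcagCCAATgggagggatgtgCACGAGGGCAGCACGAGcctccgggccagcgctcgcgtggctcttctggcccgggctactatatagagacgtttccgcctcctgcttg

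A match to this element was found in 0.424% of all promoters in the table and in 0.697% of those of tested genes. Of the 8 tested genes of the glucose-sensing list, TXNIP alone lay above 0 in all 3 replicates and MLX alone below it in all 3. The list median was 0.11, or -0.03 without replicate 1 and up to 0.21 with another replicate left out. MLX rose by 0.49 in control cells (adjusted p = 0.0318) and had a difference of -0.31. SLC2A2, the glucose transporter GLUT2, lies outside that list. Its control values were 4.17, 4.03 and 3.69 at 24 h and 3.70, 2.65 and 2.50 at 48 h, and its values with Nnm were 4.11, 5.70 and 4.20 at 24 h and 5.24, 6.03 and 5.71 at 48 h. The control values lie at or below the filter level of 4 for the most part, where log2 values are compressed, and the 2 kinds of cell went apart by like amounts (-1.01 and 0.99) for a difference of 2.00 (SE 0.24).

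**Figure D3:**
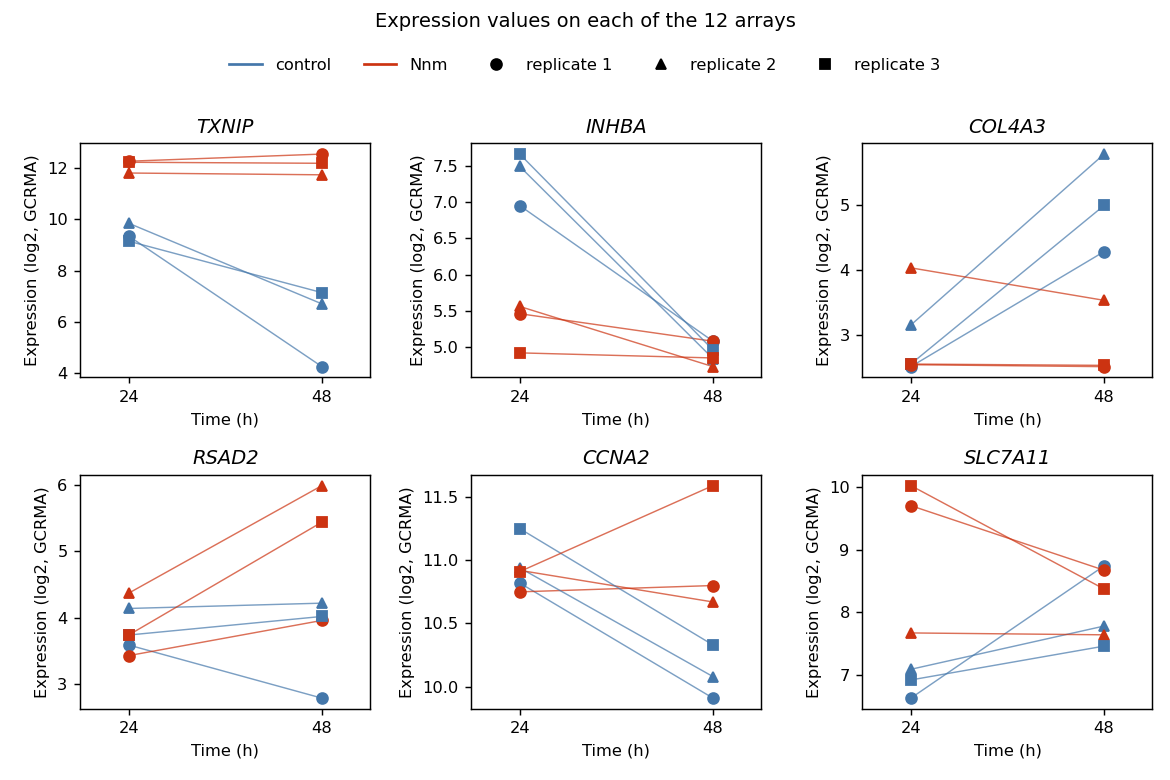
Expression (log2) on each of the 12 arrays for TXNIP, INHBA, COL4A3, RSAD2, CCNA2 and SLC7A11 at 24 h and 48 h, in control cells (blue) and Nnm-treated cells (red), with a symbol for each replicate and lines joining arrays of the same replicate number. In TXNIP, INHBA, COL4A3 and CCNA2 the control lines slope, in RSAD2 the Nnm lines slope upward, and in SLC7A11 the replicates differ. The vertical axes have different ranges.

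INHBA encodes the subunit of activin A, a ligand of the TGF-beta family. Control cells had log2 values of 6.95, 7.49 and 7.66 at 24 h and 5.08, 4.84 and 4.96 at 48 h, and Nnm-treated cells had 5.46, 5.56 and 4.92 at 24 h and 5.08, 4.73 and 4.85 at 48 h. Only the control arrays at 24 h stood apart, above the other 9. INHBA fell by 2.41 in control cells (adjusted p = 0.0121), and its difference was 1.98 (SE 0.24). The effect of Nnm was -2.05 at 24 h (adjusted p = 0.0438) and -0.07 at 48 h (adjusted p = 0.556). By 48 h the control arrays lay at the level of the treated ones.

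INHBE, which encodes another inhibin subunit and is a known target of ATF4, had a pattern of the opposite sign. Its control values were 6.24, 6.88 and 5.96 at 24 h and 9.53, 8.28 and 7.83 at 48 h, and with Nnm they were 9.04, 7.49 and 8.82 at 24 h and 9.78, 7.67 and 8.88 at 48 h. Control cells at 24 h were the low group, below the other 9 arrays. INHBE rose by 2.19 in control cells (adjusted p = 0.0281) and had a difference of -1.86 (SE 0.26).

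Of 19 tested immediate early and AP-1 genes, 4 fell and 1 rose in control cells, or 2 and 0 with the block (9.42% and 7.66% of all genes, or 4.6% and 3.87%). FOSL1, a subunit of the AP-1 factor, had control values of 5.59, 4.67 and 6.86 at 24 h and 3.64, 2.87 and 5.34 at 48 h, and values with Nnm of 2.88, 3.05 and 3.73 at 24 h and 2.85, 2.65 and 3.31 at 48 h. It lay above 4 on 4 of the 12 arrays, all of control cells, the control arrays of the 2 times overlapped, and the treated arrays were near the floor. Paired by replicate, FOSL1 fell by 1.76 in control cells (adjusted p = 0.0121) and had a difference of 1.47 (SE 0.18), with a Nnm change of -0.28. The effect of Nnm on FOSL1 was -2.49 at 24 h (adjusted p = 0.0438) and -1.01 at 48 h (adjusted p = 0.108, and 0.0471 with the block). KLF10, an early response gene of TGF-beta, fell by 0.71 in control cells and had a difference of 0.79 (SE 0.13), and JUN fell by 0.51 (adjusted p = 0.021, and 0.0502 with the block) and had one of 0.83 (SE 0.20). In the difference, 7 of the 19 lay above 0 in all 3 replicates and 2 below it, against 23.1% and 20% of all genes. Outside this list, DPYSL3, a protein of the cytoskeleton, fell by 1.69 in control cells and had a difference of 1.19 (SE 0.13). Its Nnm change was -0.51, and in both kinds of cell its arrays at 48 h lay below those at 24 h without overlap. The cytokine IL32, whose control arrays of the 2 times overlapped, fell by 0.88 in control cells and had a difference of 0.74 (SE 0.12).

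COL4A3 encodes a collagen IV chain of the glomerular and tubular basement membrane and was the lowest of the genes with the smallest p. Its control values were 2.52, 3.16 and 2.56 at 24 h and 4.29, 5.79 and 5.00 at 48 h, and with Nnm they were 2.55, 4.04 and 2.56 at 24 h and 2.52, 3.54 and 2.54 at 48 h. It lay above 4 on the 3 control arrays at 48 h and on 1 other array, so its fold is that of a gene near the floor of the arrays. COL4A3 rose by 2.28 in control cells (adjusted p = 0.0121) and had a difference of -2.46 (SE 0.26, adjusted p = 0.22, and 0.0423 with the replicate block). NOCT, a circadian phosphatase, was the other gene that passed with the block. Its difference was 1.01 (SE 0.12, adjusted p = 0.22, and 0.0423 with the block), it fell by 0.96 in control cells, and its means were 4.49 in control cells at 24 h and 3.46 to 3.53 in the other 3 groups. It lay above 4 on the 3 control arrays at 24 h alone, so it passed the filter through the group where it is high, and its fold too is that of a gene near the floor.

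Of 19 kidney injury markers, 5 rose and 3 fell in control cells, against 7.66% and 9.42% of all genes, or 3 and 1 with the block (3.87% and 4.6%). Their median difference was 0.02, or -0.02 to 0.06 with 1 replicate left out. The 3 with the smallest p all had negative differences. They were the glycoprotein GPNMB (-1.12, SE 0.17), the chitinase-like protein CHI3L1 (-1.60, SE 0.27) and the chemokine CCL2 (-0.84, SE 0.23), which rose in control cells by 1.03, 1.22 and 1.17, CCL2 not with the block (adjusted p = 0.125). The control arrays of CCL2 at the 2 times overlapped, and those of GPNMB and CHI3L1 did not. CHI3L1 stood at 7.91, 7.93 and 7.65 in control cells at 24 h, at 8.92, 8.85 and 9.37 in control cells at 48 h, at 7.62, 6.85 and 7.39 with Nnm at 24 h and at 7.20, 6.76 and 6.74 with Nnm at 48 h. The control arrays at 48 h were above all others, and CHI3L1 was lower with Nnm at 48 h by 2.15 (adjusted p = 0.0367). KRT20, a keratin induced in injured tubules, rose by 1.69 in control cells, and its difference was -1.54 (SE 0.41), with replicates of -0.46, -1.48 and -2.67.

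The clock output gene DBP rose by 1.18 in control cells (adjusted p = 0.0121) and had a difference of -1.49 (SE 0.23). TSC22D3, also known as GILZ and a classical target of the glucocorticoid receptor, rose by 1.02 in control cells and had a difference of -0.81 (SE 0.17). Its control arrays of the 2 times overlapped. With Nnm it was higher than in control cells by 1.70 at 24 h and 0.89 at 48 h, both past the threshold. Of the 11 tested targets of this receptor, 1 rose and 0 fell in control cells (7.66% and 9.42% of all genes). Their median difference was -0.12, or -0.17 to -0.08 with 1 replicate left out. PCK1, the member of this list with the smallest p, had a difference of 1.31. TFCP2L1, a factor of the distal nephron that was chosen after its values were seen, rose by 1.62 in control cells and had a difference of -1.17 (SE 0.20).

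**Figure D4:**
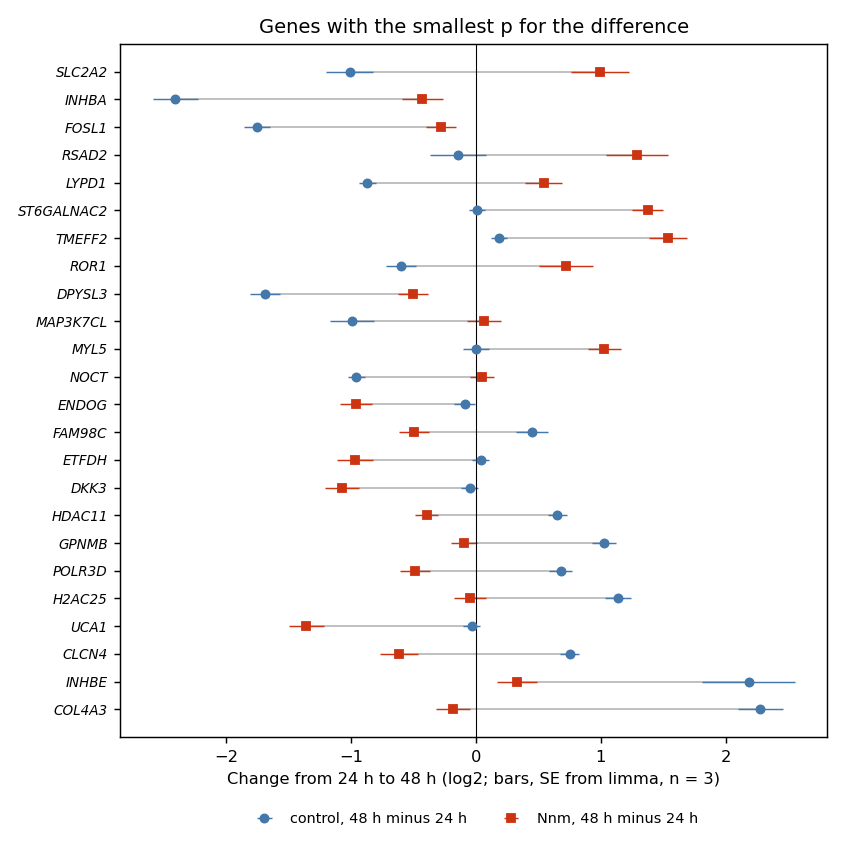
Change from 24 h to 48 h (log2) in control cells (blue circles) and Nnm-treated cells (red squares) for the 24 genes with the smallest p in the difference, 12 in each direction, ordered by the difference, with limma standard errors from 3 replicate pairs. The control change was the larger one in 14 of the 24 genes (7 in each direction), and the Nnm change in the other 10, among them RSAD2, TMEFF2, UCA1 and DKK3.

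Targets of ATF4 and genes of amino acid supply had the lowest median among the 44 lists, -0.39 over 26 tested of 27, with replicate medians of -0.67, -0.14 and -0.28. This rank holds for the pooled value, since in each single replicate another list was lower and without replicate 1 the median was -0.24, above the -0.41 of the SLC16 transporters. Without replicate 2 it was -0.60. Of the 26, 14 lay below 0 in all 3 replicates and 0 above it, against 20% and 23.1% of all genes. An unadjusted p under 0.05 was reached by 8 with a lower value (7.33% of all genes). The median change was 0.28 in control cells, where 2 rose and 0 fell, against 7.66% and 9.42% of all genes. Those that rose were SLC38A2 by 0.42 and GDF15 by 0.80, with block p of 0.0501 and 0.128. In Nnm-treated cells the median change was -0.10, and 0 passed. The median effect of Nnm on these genes was 0.44 at 24 h and -0.01 at 48 h. At 24 h 3 were higher and 2 lower (6.1% and 4.3% of all genes), or 11 and 2 with the block (20% and 18.8%). At 48 h 1 was higher and 2 lower (8.22% and 4.7%), or 1 and 3 with the block (18.5% and 13.7%).

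SLC7A11, the cystine transporter that is a target of both ATF4 and NRF2, had the largest difference of the list. Control cells had 6.63, 7.09 and 6.92 at 24 h and 8.74, 7.78 and 7.46 at 48 h, and Nnm-treated cells 9.70, 7.67 and 10.02 at 24 h and 8.67, 7.64 and 8.37 at 48 h. Control arrays were higher at 48 h than at 24 h without overlap, and with Nnm replicates 1 and 3 were lower at 48 h while replicate 2 was level. Neither change passed (control 1.11, SE 0.33, adjusted p = 0.0808; Nnm -0.91, SE 0.30, adjusted p = 0.217). The difference was -2.02 (SE 0.45, replicates -3.14, -0.72 and -2.20). Asparagine synthetase ASNS had a difference of -0.83 (SE 0.21) and the serine enzyme PSPH one of -0.50 (SE 0.14). CHAC1, which breaks down glutathione, and DDIT3, the stress factor CHOP, had -1.48 and -1.13 and were chosen after their values were seen. Their values rest on replicate 1, with replicates of -3.32, -0.84 and -0.28 for CHAC1 and of -2.85, 0.15 and -0.68 for DDIT3.

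Genes of the endoplasmic reticulum and the unfolded protein response had a median difference of -0.24 over 21 tested genes. Of these, 11 lay below 0 in all 3 replicates and 1 above it, against 20% and 23.1% of all genes. The median was -0.37 without replicate 2 and -0.12 without replicate 3. With the block 1 gene rose (HERPUD1) and 1 fell (SDF2L1) in control cells, against 3.87% and 4.6% of all genes. In the paired test 4 rose and 3 fell, against 7.66% and 9.42%. Those that rose were SEL1L and HERPUD1 of the degradation pathway, the co-chaperone DNAJB9 and the sensor ATF6, by 0.33 to 0.62, and those that fell, by 0.35 to 0.80, were the folding proteins SDF2L1, HYOU1 and DNAJB11. HSPA5, the main chaperone of this compartment and chosen after its values were seen, had a difference of 0.01. SEL1L had a difference of -0.60 (SE 0.14) and the disulfide isomerase PDIA3 one of -0.36 (SE 0.12). The other kept probe sets of SEL1L had control changes of -0.05 and 0.05 and differences of -0.11 and -0.36.

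Among NRF2 targets and glutathione genes the larger changes lay in treated cells. The Nnm change was the larger one in size in 14 of the 18 tested genes (24 listed), with a median of -0.40 in treated cells and 0.01 in control cells. No member passed in treated cells. In control cells 3 of the 18 fell and 0 rose (9.42% and 7.66% of all genes), or 0 in either direction with the block. The median difference was -0.16, and 9 genes lay below 0 in all 3 replicates and 1 above it, against 20% and 23.1% of all genes. The median was -0.32 without replicate 1 and -0.25 without replicate 2. The median effect of Nnm on the list was 0.64 at 24 h and 0.23 at 48 h. At those times 2 and 4 genes were higher (6.1% and 8.22% of all genes), or 11 and 7 with the block (20% and 18.5%). Glutathione reductase GSR had 9.34, 8.96 and 9.26 in control cells at 24 h, 9.51, 9.31 and 9.35 at 48 h, 10.02, 9.18 and 10.17 with Nnm at 24 h and 9.29, 8.91 and 9.22 with Nnm at 48 h. The high arrays were those of replicates 1 and 3 with Nnm at 24 h. Its difference was -0.86 (SE 0.14, unadjusted p = 0.00126), with a Nnm change of -0.65 and a control change of 0.21.

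Thioredoxin reductase TXNRD1 had a control change of 0.01. It stood at 11.68, 11.85 and 11.64 at 24 h and at 11.68, 11.86 and 11.65 at 48 h in control cells, and at 13.76, 12.69 and 13.83 at 24 h and 13.29, 12.30 and 13.22 at 48 h with Nnm. Every array with Nnm was above every control array, and each replicate was lower at 48 h than at 24 h. Its difference was -0.50 (SE 0.12), and the effect of Nnm was 1.71 at 24 h (adjusted p = 0.0438) and 1.21 at 48 h (adjusted p = 0.052, and 0.0139 with the block). NQO1, a quinone reductase chosen after its values were seen, fell by 0.53 in control cells (adjusted p = 0.0286, and 0.128 with the block), had a Nnm change of -0.87 and was higher with Nnm at both times, by 1.36 and 1.01. HMOX1 had a difference of -0.95 (SE 0.37), with replicates of -1.46, 0.21 and -1.61.

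Genes of the lysosome and autophagy likewise had the larger change in treated cells in 17 of 25 tested genes. Their median change was -0.26 with Nnm and 0.03 in control cells, and the median difference was -0.23. Of the 25, 13 lay below 0 in all 3 replicates and 0 above it, against 20% and 23.1% of all genes. The median effect of Nnm was 0.29 at 24 h and -0.07 at 48 h. NPC1, the cholesterol exporter of lysosomes, had a difference of -0.47 (SE 0.12), WIPI1, a protein of early autophagosomes, one of -0.58 (SE 0.17), and the sialidase NEU1 one of -0.56 (SE 0.16). NEU1 rose in control cells by 0.46, PSAP by 0.30 and HEXA by 0.36, of which HEXA alone passed with the block, and the rest of the list passed in neither kind of cell. The metallothioneins and the zinc exporter SLC30A1 had negative differences in all 8 tested genes, and the Nnm change was larger in 7 of them. Only 3 of the 8 lay below 0 in all 3 replicates (20% of all genes did), and the list median was -0.29, or -0.05 without replicate 1 and -0.47 without replicate 2.

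In several single genes the Nnm change was the larger part of the difference. RSAD2, which encodes the antiviral protein viperin, had the smallest p of all genes tested for the difference (unadjusted p = 4.76e-05). Its control values were 3.59, 4.14 and 3.74 at 24 h and 2.79, 4.22 and 4.02 at 48 h, and with Nnm they were 3.43, 4.37 and 3.74 at 24 h and 3.96, 5.99 and 5.44 at 48 h. Replicates 2 and 3 with Nnm at 48 h stood above all other arrays. In replicate 1 the control change (-0.80) was larger than the Nnm change (0.53), and RSAD2 lay above 4 on 6 of the 12 arrays. The difference was 1.44 (SE 0.12, replicates 1.34, 1.54 and 1.43), and the Nnm change was 1.29 (adjusted p = 0.118, and 0.0451 with the replicate block). The list of 23 interferon-stimulated genes had a median of 0.05, with 6 above and 3 below 0 in all 3 replicates, against 23.1% and 20% of all genes, and -0.02 to 0.13 with each replicate left out. OAS3 had a difference of 0.67 (SE 0.12) and fell by 0.60 in control cells. OASL had a difference of 1.47 (SE 0.49, replicates 2.87, 0.15 and 1.39), with a Nnm change of 1.12 that did not pass and a control change of -0.34. Its arrays with Nnm at 48 h lay above those at 24 h without overlap.

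PCK1 encodes the rate-limiting enzyme of gluconeogenesis. It stood at 2.85, 3.13 and 3.26 in control cells at 24 h and 2.97, 3.26 and 3.28 at 48 h, and at 3.42, 4.20 and 4.04 with Nnm at 24 h and 5.27, 5.02 and 5.55 at 48 h. The control arrays lay below the filter level of 4 at both times, and each array with Nnm at 48 h was above all others. Its Nnm change was 1.39 (SE 0.21, adjusted p = 0.0946, and 0.00963 with the block), and its difference was 1.31 (SE 0.23). Compared with control cells of the same time it was higher by 0.81 at 24 h and 2.11 at 48 h, both past the threshold.

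UCA1, a long non-coding RNA, was lower in treated cells at 24 h and lower again at 48 h. Control cells had 6.37, 6.59 and 8.23 at 24 h and 6.31, 6.51 and 8.28 at 48 h, and Nnm-treated cells 4.65, 4.87 and 5.99 at 24 h and 3.48, 3.67 and 4.29 at 48 h. Replicate 3 was high in every group, and within each replicate control cells were level. The Nnm change was -1.36 (SE 0.14, adjusted p = 0.0898, and 0.0223 with the block), and the difference was -1.33 (SE 0.17). The effect of Nnm was -1.89 at 24 h and -3.22 at 48 h, both past the threshold.

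DKK3, which encodes a secreted protein of the Dickkopf family, was among the brightest genes, at 13.36, 13.25 and 13.62 in control cells at 24 h and 13.30, 13.15 and 13.63 at 48 h. With Nnm it stood at 13.30, 12.61 and 13.59 at 24 h and 11.91, 11.63 and 12.75 at 48 h. The arrays with Nnm at 48 h were lower than the control arrays of every replicate. The Nnm change was -1.07 (adjusted p = 0.0928, and 0.018 with the block), and the effect at 48 h was -1.26 (adjusted p = 0.0421) against -0.24 at 24 h (adjusted p = 0.31).

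The mitochondrial genes ETFDH and ENDOG had the larger change in treated cells. ETFDH, which passes electrons from fatty acid oxidation to ubiquinone, had 6.47, 6.64 and 6.62 in control cells at 24 h, 6.53, 6.71 and 6.60 at 48 h, 6.88, 6.54 and 7.14 with Nnm at 24 h and 5.83, 5.91 and 5.91 with Nnm at 48 h. Its difference was -1.01 (SE 0.15), its Nnm change -0.97 (adjusted p = 0.0946, and 0.0165 with the block), and it was lower with Nnm at 48 h by 0.73 (adjusted p = 0.0421). ENDOG, a mitochondrial nuclease, had a difference of -0.87 (SE 0.13) and a Nnm change of -0.96 (adjusted p = 0.0946, and 0.0176 with the block). Pyruvate carboxylase, PC, had a difference of -1.36 (SE 0.21), to which both kinds of cell contributed (control 0.61, adjusted p = 0.0417 and 0.192 with the block, and Nnm -0.75). Over the 21 genes of the citrate cycle and fatty acid oxidation, 7 lay below 0 in all 3 replicates and 4 above it, against 20% and 23.1% of all genes (median -0.17, or -0.11 without replicate 3). The Nnm change was the larger one in 10 of these 21. In control cells 3 rose (7.66% of all genes did), or 0 with the block, and in treated cells 0 passed (1 lower with the block). Over the 25 genes of oxidative phosphorylation 9 lay below and 0 above (median -0.11), the Nnm change was the larger one in 17, and 0 passed in either kind of cell.

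ST6GALNAC2, a sialyltransferase, and TMEFF2, a transmembrane protein, had differences of 1.37 (SE 0.14) and 1.36 (SE 0.17) with Nnm changes of 1.38 and 1.54 and control changes of 0.01 and 0.18. The Nnm change of ST6GALNAC2 passed with the block (adjusted p = 0.0898 in the paired test and 0.00788 with the block). This gene lay above 4 on the 3 arrays with Nnm at 48 h alone, so it passed the filter through the group where it is high, and its other arrays are at the floor. The cadherin CDH6 of the developing proximal tubule had a difference of 1.32 (SE 0.29). Its replicates were 1.81, 0.43 and 1.73, and its 6 kept probe sets did not all share a direction. Its Nnm change was 0.95, which did not pass. It fell by 0.37 in control cells (adjusted p = 0.0453, and 0.31 with the block), whose arrays of the 2 times overlapped. It was higher with Nnm at 48 h by 1.38 (adjusted p = 0.0421), with an effect of 0.06 at 24 h.

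Of the remaining genes with the smallest p, LYPD1 and MAP3K7CL fell in control cells by 0.87 and 0.99 and had differences of 1.41 and 1.06. The control arrays of MAP3K7CL at the 2 times overlapped. MYL5, a dim gene with a mean of 4.44, had a Nnm change of 1.03, a control change of 0 and a difference of 1.03. Its arrays with Nnm at 48 h lay above those at 24 h. FAM98C had a control change of 0.45, a Nnm change of -0.49 and a difference of -0.94. Its arrays of the 2 times overlapped in both kinds of cell. The receptor tyrosine kinase family member ROR1 had a difference of 1.32, to which both kinds of cell contributed, with a Nnm change of 0.72 and a control change of -0.60. Its arrays of the 2 times did not overlap in either kind of cell. The fall in control cells passed in the paired test and not with the block (adjusted p = 0.0379 and 0.1). The Nnm change did not pass, and the probe sets of ROR1 have unequal directions. Rises in control cells were 0.68 for the RNA polymerase III subunit POLR3D and 0.65 for the deacetylase HDAC11. They were 1.14 for the histone gene H2AC25 and 0.75 for the chloride and proton exchanger CLCN4. Differences were -1.17, -1.05, -1.19 and -1.37 in that order. The other kept probe set of HDAC11 had a control change of 0.08 and a difference of -0.08. Those of CLCN4 had control changes of 0.06 and -0.37 and differences of -0.40 and -0.27. The Nnm change of CLCN4, -0.62, passed with the block (adjusted p = 0.149 in the paired test and 0.0409 with the block).

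Some lists had medians close to that of all genes. Those of cytosolic ribosomal proteins, proteasome, aminoacyl-tRNA synthetases, heat shock proteins and p53 targets had median differences of 0.01, -0.01, -0.02, 0.03 and -0.04, near the 0.014 of all genes, and -0.11 to 0.07 with each replicate left out. In the proteasome list this came from like changes in both kinds of cell. Its median change was -0.30 in control cells, where 12 of 25 fell, or 6 with the block (9.42% and 4.6% of all genes). With Nnm the median change was -0.27, and 0 passed, or 4 lower with the block (113 of all 10907 genes). Further from all genes, the list of NF-kB regulators, chemokines and cytokines had a median difference of 0.31 with a replicate 2 median of 0.05, or 0.49 without replicate 2 and 0.19 without replicate 3, and 6 of its 22 genes lay above 0 in all 3 replicates and 1 below it, near the 23.1% and 20% of all genes. The monocarboxylate transporters SLC16 had the second lowest median of the 44 lists, -0.35 over 6 genes. Of these, 4 lay below 0 in all 3 replicates and 1 above it, against 20% and 23.1% of all genes. Among the 4 were SLC16A4 (-0.67) and SLC16A7 (-0.40), which rose in control cells by 0.45 and 0.51, SLC16A4 not with the block (adjusted p = 0.281).

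**Figure D5:**
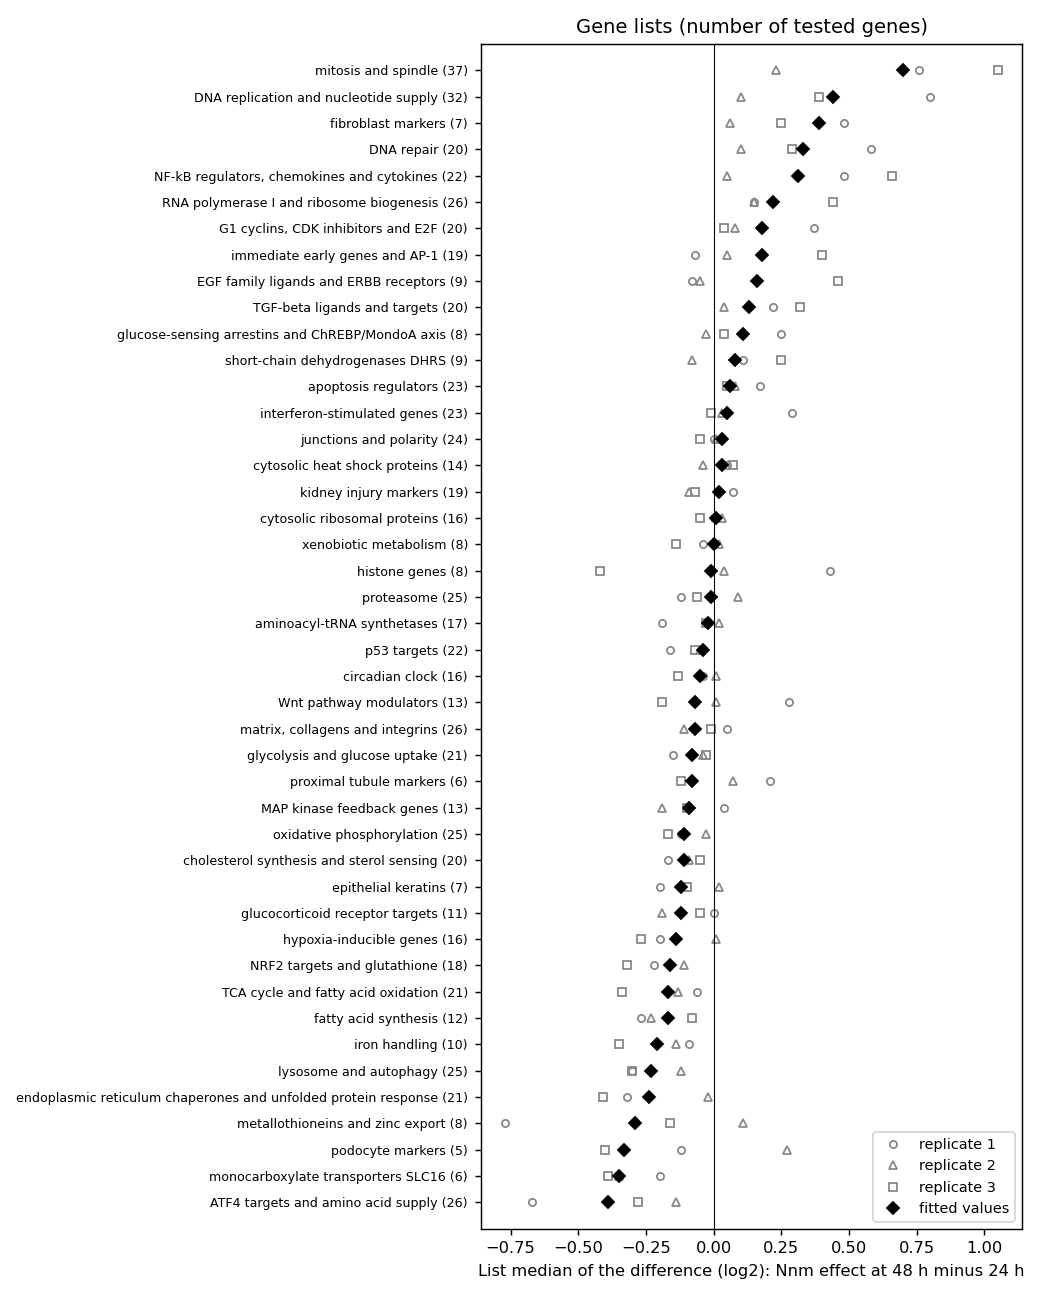
Median difference (log2, Nnm effect at 48 h minus 24 h) of the 44 gene lists with at least 5 tested genes, from the fitted values (black diamonds) and for each replicate (open symbols), ordered by the fitted median, with the number of tested genes in brackets. Mitosis is at 0.70 and ATF4 targets at -0.39, and the replicate 2 values (triangles) are nearer to 0 than those of replicates 1 and 3 in both.

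Markers of other cell types were looked at for the same 4 groups. All 10 leukocyte markers on the array were at or below 4 on all 12 arrays, as were 7 of 10 endothelial markers and 7 of 14 fibroblast markers, among them COL3A1, PDGFRA and PDGFRB. The other 7 fibroblast markers were tested, and several were bright, with DCN at 11.52 to 12.37, LUM at 9.68 to 10.46, FBLN1 at 8.60 to 10.61 and COL1A1 at 7.34 to 8.92 over the 12 arrays. Their median difference was 0.39, or 0.18 without replicate 1 and -0.04 without a filter on dim probe sets. Of the 7, 3 lay above and 1 below 0 in all 3 replicates, against 23.1% and 20% of all genes. In control cells 2 of the 7 fell and 0 rose (9.42% and 7.66% of all genes). The log2 of the summed level of the fibroblast list was 12.60 to 13.11 in control cells at 24 h, 12.62 to 12.75 in control cells at 48 h, 12.43 to 13.04 with Nnm at 24 h and 12.79 to 12.91 with Nnm at 48 h. Of the 7 podocyte markers on the array, NPHS1 and WT1 were at or below 4 on all arrays and 5 were tested, PTPRO at 12.53 to 13.30 among them. The podocyte median was -0.33, or -0.53 without replicate 2 and -0.21 without replicate 3, and the summed level was 13.84 to 14.19, 13.99 to 14.14, 13.81 to 13.97 and 13.53 to 13.69 in the same order of groups. The part of these markers in the results was not tested. Of the 21 proximal tubule markers on the array, 15 were also at or below 4 on all arrays, LRP2, CUBN, AQP1 and SLC34A1 included, so the labelled cell type is borne out by few of its defining markers. Those that were tested rose in control cells in 4 of 6 cases, or in 1 with the block (7.66% and 3.87% of all genes). The log2 of the summed level of the proximal tubule list was 12.52 to 12.88 in control cells at 24 h, 13.04 to 13.26 in control cells at 48 h, 13.14 to 13.49 with Nnm at 24 h and 13.83 to 13.99 with Nnm at 48 h. SLC3A1, a subunit of the tubular cystine transporter, rose by 0.93 in control cells (adjusted p = 0.0121, and 0.0763 with the block), had a Nnm change of 1.72 (adjusted p = 0.0898, and 0.0263 with the block) and a difference of 0.79 (SE 0.22).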

How the data were processed

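Total RNA from the 12 cultures was hybridised as biotin-labelled cRNA to Affymetrix arrays of 54675 probe sets. The deposited values are log2 expression values made by the authors with GCRMA, per the submitters' processing notes. Its version, and which arrays were normalised together, are not given in the sources used here. The base of the logarithm follows from the range that the values span. GCRMA lifts low signals to a floor, so changes of dim genes are understated or noisy.

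Probe sets were named from the platform's annotation, control probe sets were left out, and 1 symbol was required. Probe sets had to exceed 4 on 3 or more arrays (19832 did), and the probe set with the highest mean stood for its gene, which gave 10907 genes. The 12 arrays limit the precision, and SEs are limma's with n = 3.

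The differences within each replicate number were fitted with an intercept alone (lmFit and eBayes of limma 3.58.1, R 4.3.3). P-values were adjusted over all genes by Benjamini-Hochberg, with a threshold of 0.05. The replicate numbers pair the arrays. Once each group's mean was subtracted, same-numbered arrays correlated at 0.318 to 0.696 and those of different numbers at -0.587 to 0.119. The labels call the replicates biological and do not say how cultures were kept apart.

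The 48 gene lists hold 964 genes, 737 of them tested. The lists and the members were chosen with earlier results of these data known. The genes named are the 12 in each direction with the smallest p in the difference and all 3 replicates of 1 sign, and up to 3 of each list of at least 5 tested genes with the smallest p. Of the 146 such genes, 67 had more than 1 kept probe set, and these shared a direction, though not always a size, in 59. The exceptions were BCL2, CDH6, HSPA4, NRG1, OCLN, ROR1, SLC16A7 and VARS1. Members counted in a list as changed are named from those counts, and other genes outside the rule are marked in the text. The test was tried on simulated data. Alternatives were a block for the replicate number (over all arrays, or apart in control and treated cells), no block, limma's trend and robust settings, no filter, a filter of 6, averaging a gene's probe sets, median centring, quantile normalisation and each replicate left out. Promoters were read from a RefSeq table with Python 3.11.15, and the plots were drawn with matplotlib 3.10.9.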

Additional observations from a re-analysis of the deposited data

How the results depend on the processing

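Under the alternatives tried, 0 genes passed in the difference except for the 2 with the replicate block, namely NOCT and COL4A3. None of the 1735 values of the 146 named genes reversed, which their choice by small p favours, and with 0 calls at the outset their side of the threshold says nothing about stability. Of 528 list medians, 515 moved by less than the spread between replicates. The NRF2 list had -0.32 to -0.17 with 1 replicate left out. Counts of genes that passed moved far more, and the cause was not tested. Those of control cells were 924 with the replicate block, 14 without a replicate block, 1121 with trend and robust settings, 263 without a filter and 0 to 582 with 1 replicate left out. Those of Nnm-treated cells were 250, 13, 623 with the block within each treatment, 88 at a filter of 6 and 0 to 58. Those of the effect at 24 h were 4237 with the block, 2116 without one, 0 with trend and robust settings, 0 without a filter, 1995 at a filter of 6 and 0 to 4306. Those at 48 h were 3515 with the block, 0 with trend and robust settings, 0 without a filter, 2311 at a filter of 6 and 0 to 3673. Falls of mitosis genes in control cells numbered 18 with the block, 0 without one, 19 with the block within each treatment, 10 without a filter and 0 to 20 with 1 replicate left out. Falls of replication genes numbered 7, 0, 10, 1 and 0 to 5, and of repair genes 2, 0, 4, 1 and 0 to 2. Where the replicate block changed a call printed for a gene or list, its value stands beside that call, and it changed no other printed call. With 3 replicate pairs and no depth in array data, the precision is set by the spread between replicates.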
